A study of Mus musculus with 2 samples.

Results

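The genes described here are 34 genes of ceramide and barrier lipid metabolism in the epidermis, taken by symbol from the feature list of the count tables. That list held 33 of them among 31053 features, and Sts, which encodes steroid sulfatase, was not analysed here. The members fall into 10 role groups, from sphingoid base synthesis to the transglutaminases. RNA of single cells from whole back skin was counted in 1 Card14KI mouse, labelled Card14 KI +/+, and 1 WT mouse, both C57BL/6 and 12 months old. In keratinocytes the CARD14 scaffold passes signals on to NF-kB, and by the series title the mutant stands for pityriasis rubra pilaris, an inflammatory disease with scaling. The sources used here do not name the allele of the knock-in, and each group is 1 animal. Both skins went through the same 73 min digestion and dead cell removal, so the libraries hold the cells that survived these steps.

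Ceramides make up much of the lipid that fills the space between cornified cells and holds water in the body. Serine palmitoyltransferase starts their synthesis, ceramide synthases join a sphingoid base to a fatty acid that elongases have lengthened, and a desaturase sets the double bond of the base. Granular keratinocytes store the product as glucosylceramide and sphingomyelin, load it into lamellar bodies through the ABCA12 transporter, and release it again outside the cell. A special set, the omega-O-acylceramides, carries a very long fatty acid esterified with linoleic acid, and part of it is bound to the protein envelope that transglutaminase 1 cross-links. Inherited loss of many of these genes gives ichthyosis in humans. Sebocytes, the lipid-filled cells of the sebaceous gland, use some of the same enzymes.

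The Card14KI library held 3348 barcodes and 41460580 UMIs (unique molecules) and the WT library 5016 barcodes and 54816411 UMIs, with 2 barcodes in common. Filtering left 2835 Card14KI cells at a median depth of 6920 UMIs and 4161 WT cells at 7302 UMIs. Cells were sorted into classes by marker genes that are not members, and a class name below stands for such a gate, as in granular-like or sebocyte-like cells. In this sense there were 49 Card14KI and 39 WT granular cells, 381 and 169 spinous cells, 87 and 34 basal cells of the interfollicular side, and 183 and 200 sebocytes. Doublet removal took 0 Card14KI and 16 WT cells from the granular gate. Levels are CPM, the UMIs of a gene per 1000000 UMIs of all cells of the class in a library, and intervals are exact 95% intervals that cover counting error only. With 1 mouse per genotype there is no replicate check and no test, and each ratio compares these libraries, not the genotypes. The kit reads the 3' end of transcripts, so a member is compared with itself across classes and libraries and not with other members. Markers of other cells differed between the libraries in both directions. The 6 fibroblast markers summed to 27.4 CPM in Card14KI and 104 CPM in WT granular cells, and to 45.9 and 332 CPM in spinous cells. The 5 inner root sheath markers summed to 10.1 and 115 CPM in granular cells, and that class was gated in 1 Card14KI and 167 WT cells. The 5 Langerhans cell markers, which include Epcam and MHC class II genes, were instead higher in Card14KI, with 1116 against 593 CPM in granular cells and 530 against 182 CPM in basal cells. In granular cells Cd74, one of them, had 12.8 and 2.95 CPM. The 7 mononuclear phagocyte markers, which include the class II genes H2-Aa and H2-Ab1, summed to 19.2 and 3.93 CPM there. Most of the granular sum was thus Epcam or Cd207, and it does not by itself show Langerhans cell RNA. In basal cells Cd74 had 188 and 35.9 CPM. The part of this RNA in the differences given here was not tested.

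Promoter sequences are given for 4 of the 8 members whose granular levels differed between the libraries by 1.5-fold or more, as described further on. RefSeq has promoter entries for 31 member genes, 44 in all, and the 250 bases before each start were searched on both strands. The AP-1 motif TGANTCA, bound by FOS and JUN factors, was in 5 of 44 member promoters (11.4%), against 6.75% of 32851 promoters of all genes. The nuclear receptor half-site AGGTCA, bound by PPAR, RXR and related receptors, was in 12 of 44 (27.3%), against 14.0%. These shares count promoter entries and not genes. Sgms1 and Sgms2 have several entries each, and both genes have entries with the AP-1 motif and entries with the half-site. A match is a description of letters only. Elovl1, Sult2b1 and Tgm1 each have another RefSeq entry with neither motif, and the entry with a match is the one shown. Of the members that differed but are not shown, Smpd1 has the half-site, and Slc27a4, Nipal4 and Sptlc2 have neither motif. Each sequence runs 5′ to 3′ on the strand of the gene up to the base before the start, with matches in capitals, from RefSeq on GRCm38.p6.
Elovl1, chr4:118429451-118429700, plus strand, with the half-site: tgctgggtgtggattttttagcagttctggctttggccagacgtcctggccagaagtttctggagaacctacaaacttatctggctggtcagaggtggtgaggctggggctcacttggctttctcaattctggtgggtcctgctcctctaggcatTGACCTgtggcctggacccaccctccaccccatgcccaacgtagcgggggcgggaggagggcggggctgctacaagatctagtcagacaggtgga
Elovl4, chr9:83806306-83806555, minus strand, with neither motif: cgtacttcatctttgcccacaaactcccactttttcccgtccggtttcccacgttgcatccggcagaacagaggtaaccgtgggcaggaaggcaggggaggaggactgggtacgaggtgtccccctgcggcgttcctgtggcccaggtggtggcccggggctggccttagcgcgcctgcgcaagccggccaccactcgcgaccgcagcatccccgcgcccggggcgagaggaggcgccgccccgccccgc
Tgm1, chr14:55713493-55713742, minus strand, with the half-site: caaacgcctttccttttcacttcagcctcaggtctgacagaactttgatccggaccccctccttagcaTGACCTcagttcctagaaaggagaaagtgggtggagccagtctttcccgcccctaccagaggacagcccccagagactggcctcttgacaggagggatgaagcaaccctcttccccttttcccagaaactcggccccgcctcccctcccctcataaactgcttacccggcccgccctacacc
Sult2b1, chr7:45742479-45742728, minus strand, with the AP-1 motif: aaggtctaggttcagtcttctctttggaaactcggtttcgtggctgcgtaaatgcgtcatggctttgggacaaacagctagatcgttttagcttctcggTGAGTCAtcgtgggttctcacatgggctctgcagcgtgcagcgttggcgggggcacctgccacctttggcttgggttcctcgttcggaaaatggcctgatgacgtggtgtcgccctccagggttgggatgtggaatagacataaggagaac

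Across the 12 classes compared, the members did not share one cell type. Classes under 20 cells in a library were left out of this ranking. Among them were the inner root sheath, with 1 Card14KI and 167 WT cells, and the outer root sheath, with 62 WT cells. The class with a member's highest CPM was the same in both libraries for 28 of 33 members. It was the granular class for 9 of them, the sebocyte for 7, the endothelial class for 5, the spinous class for 2, and 1 each for basal, sebaceous basal, upper follicle, phagocyte and neutrophil classes. No share of all genes stands beside these counts, so they are not read against other genes. They have no UMI minimum, and Degs2 is among the 28 on 24 Card14KI and 20 WT UMIs over all classes. The members highest in granular cells of both libraries were Cers3, Elovl1, Sgms1, Smpd1, Pnpla1, Nipal4, Sdr9c7, Abca12 and Tgm1. At or under 2 CPM in fibroblasts of both libraries were 12 members, among them Cers3, Pnpla1, Nipal4, Sdr9c7 and Abca12. Fewer molecules per cell and fewer expressing cells within a class both lower its CPM, and the CPM does not separate them.

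**Figure D1:**
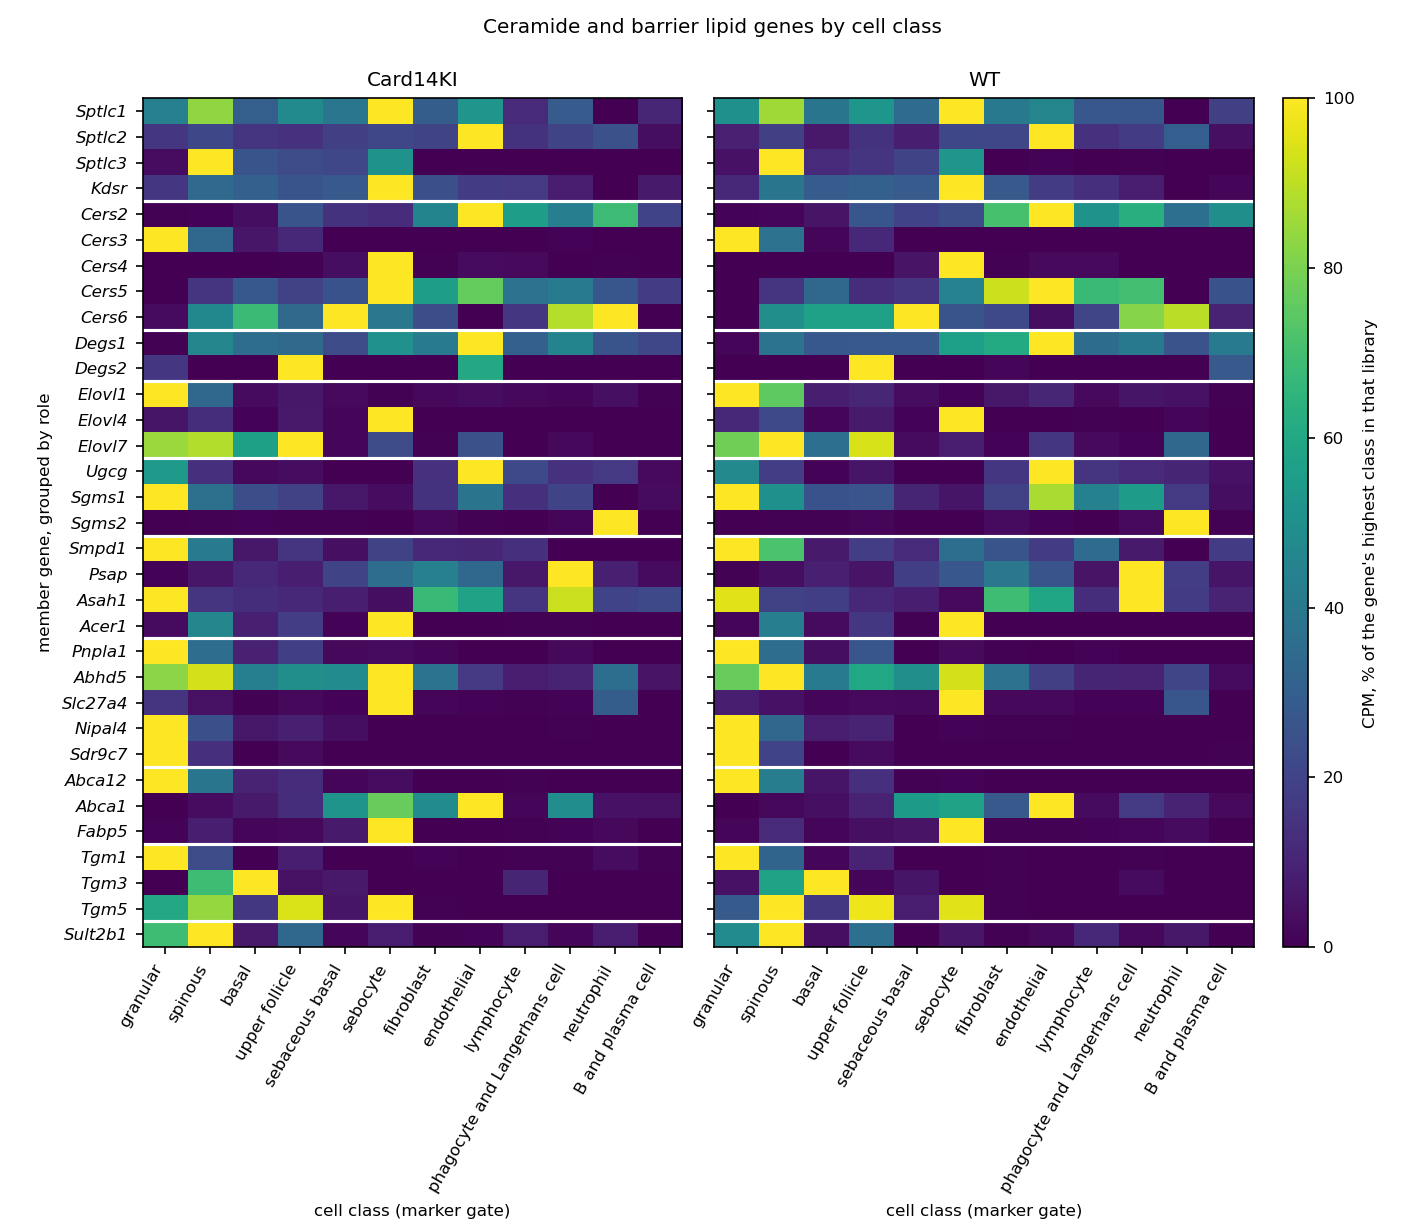
Each square shows the CPM of a member in a cell class as a percentage of that member's highest class in the same library, Card14KI on the left and WT on the right, with members grouped by role between white lines. Granular cells, sebocytes and endothelial cells hold the bright squares of most rows, and the highest class is the same in both libraries for 28 of 33 members.

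Genes of the first steps were highest outside the granular layer. Of the serine palmitoyltransferase subunits, Sptlc1 was highest in sebocytes (65.1 CPM in Card14KI and 66.6 CPM in WT), Sptlc2 in endothelial cells (192 and 216 CPM) and Sptlc3 in spinous cells (81.8 and 82.1 CPM). Kdsr, the reductase of the next step, was highest in sebocytes, at 146 and 143 CPM. The desaturase Degs1 was highest in endothelial cells, at 243 and 203 CPM, whereas Degs2, which adds the hydroxyl group of phytoceramides, was near 0 in most classes and reached 5.77 and 6.47 CPM in upper follicle cells.

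The ceramide synthases, which differ in the length of the fatty acid they use, differed in the class where they were highest. Cers3, known for the very long acyl chains of skin ceramides, was at 145 CPM in Card14KI and 136 CPM in WT granular cells, and at 0.207 and 0.189 CPM in sebocytes. Cers4 showed the reverse, with 3219 and 3665 CPM in sebocytes against 2.74 and 5.89 CPM in granular cells. It was found in 181 of 183 Card14KI and 198 of 200 WT cells. Cers2, a broadly expressed synthase, was at 138 and 106 CPM in endothelial cells and had 1 UMI in the granular cells of each library. Cers6 had its highest level in sebaceous basal cells, at 63.3 CPM in Card14KI and 72.3 CPM in WT, close to neutrophils with 63.3 and 64.7 CPM from 4 and 5 UMIs. Cers5 had 0 UMIs in granular cells, which allows up to 2.74 CPM in Card14KI and 2.95 CPM in WT. Its highest class was the sebocyte in Card14KI (59.1 CPM) and the endothelial class in WT (43.1 CPM).

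The elongases were split between the granular layer and the sebaceous gland. Elovl1 (GRCm38 chromosome 4, 118428093 to 118432953), which makes saturated and monounsaturated very long chain fatty acids, reached 1115 CPM in Card14KI and 519 CPM in WT granular cells, but 5.17 and 6.04 CPM in sebocytes. Elovl4 (chromosome 9, 83778692 to 83806277), which makes the still longer chains that acylceramides need, reached 4961 CPM in Card14KI and 3951 CPM in WT sebocytes. Its next class was the spinous one, with 653 and 872 CPM. Elovl7 was spread over spinous, granular and upper follicle cells, at 59.9 to 76.5 CPM over both libraries.

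Within the sebocytes, Elovl4 varied from cell to cell far more than Cers4. The median sebocyte had 1.39 Elovl4 UMIs per 10000 in Card14KI and 0.324 in WT, whereas the highest cell had 767 and 760 per 10000. The 19 Card14KI and 20 WT sebocytes with the most Elovl4 UMIs held 63.6% of them in Card14KI and 71.9% in WT, and 57 and 91 sebocytes had none. For Cers4 as many cells held 27.7% and 29.8%, with a median of 28.9 and 32.0 UMIs per 10000. Elovl1 in granular cells was also uneven, with 11 of 49 Card14KI and 13 of 39 WT cells at 0, whereas Ugcg had a UMI in every granular cell of both libraries.

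**Figure D2:**
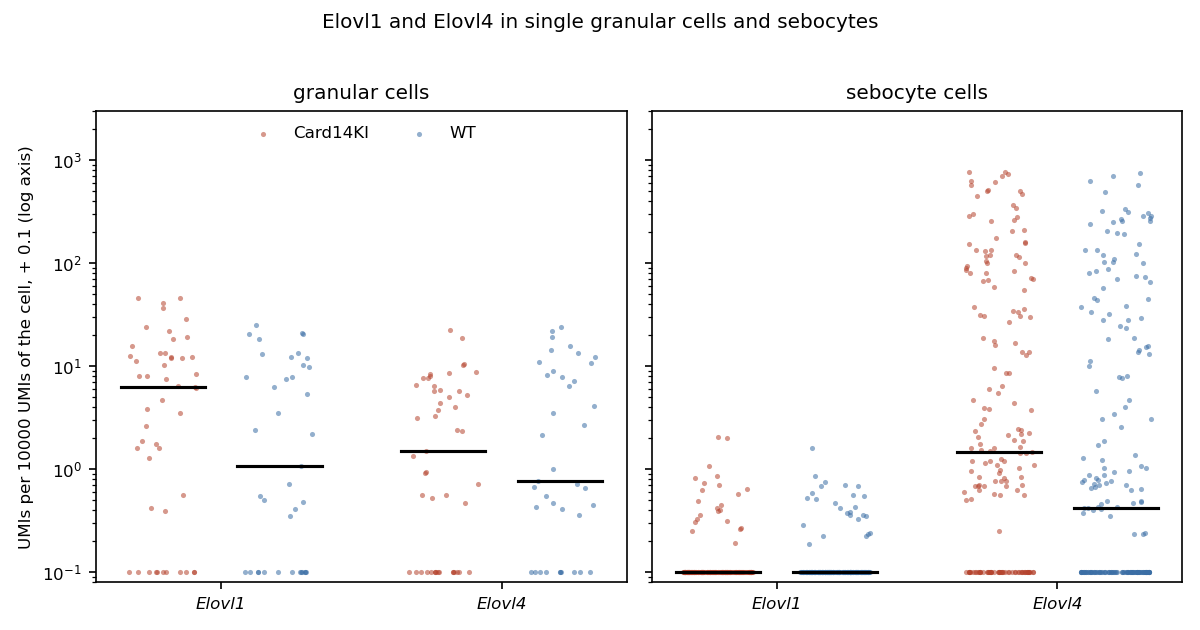
Points are single cells, with UMIs per 10000 UMIs of the cell plus 0.1 on a log axis; bars are medians, and points at the bottom are cells with no UMI. Elovl1 is seen in granular cells and is near 0 in sebocytes, whereas Elovl4 runs over several orders of magnitude in sebocytes, up to 767 per 10000 in Card14KI and 760 in WT.

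Genes of ceramide storage and release also followed the class. Ugcg (glucosylceramide synthase; chromosome 4, 59189257 to 59222833) had 459 CPM in Card14KI and 357 CPM in WT granular cells, 848 and 755 CPM in endothelial cells, and 0.827 and 1.13 CPM in sebocytes. Of the sphingomyelin synthases, Sgms1 was highest in granular cells, at 225 and 152 CPM. Sgms2 had 0 UMIs there, with the same limits as Cers5, and was highest in neutrophils, with 1139 CPM in Card14KI and 829 CPM in WT, from 72 and 64 UMIs. Smpd1, the acid sphingomyelinase that turns sphingomyelin back to ceramide, stood at 161 and 94.3 CPM in granular cells. Psap, the precursor of the saposins that help lysosomal enzymes reach their lipids, was highest in phagocytes at 1632 and 2375 CPM. Acer1, an alkaline ceramidase, was highest in sebocytes, at 269 CPM in Card14KI and 326 CPM in WT.

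Of the acylceramide genes, Pnpla1, Nipal4 and Sdr9c7 were highest in granular and next in spinous cells of both libraries. Sdr9c7, a dehydrogenase that acts on the oxidised linoleate of acylceramide, had 398 CPM in Card14KI and 322 CPM in WT granular cells and 54.2 and 64.9 CPM in spinous cells. In sebocytes it had 0.207 and 0.377 CPM. Abhd5 was spread between sebocytes, its highest class in Card14KI at 132 CPM, and spinous cells, its highest class in WT at 124 CPM. Slc27a4, a fatty acid transport protein, was instead highest in sebocytes, with 536 and 534 CPM, and had 80.4 and 44.2 CPM in granular cells. Fabp5, the epidermal fatty acid binding protein, was at 20624.5 CPM in Card14KI and 19307 CPM in WT sebocytes. Abca12 belonged to the granular layer, with 438 and 411 CPM and UMIs in 49 of 49 Card14KI and 37 of 39 WT granular cells. The cholesterol exporter Abca1 had 0 UMIs in granular cells, again with those limits, and was highest in endothelial cells, with 320 CPM in Card14KI and 541 CPM in WT. Tgm1, the main cross-linker of the envelope, had 458 and 286 CPM in granular cells, whereas Tgm3 was highest in basal cells at 19.8 and 20.2 CPM. Tgm5 was highest in sebocytes of Card14KI (24.2 CPM) and in spinous cells of WT (27.7 CPM).

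Granular cells were also set beside fibroblasts by the share of cells with a UMI. With each cell thinned to 2000 UMIs, Cers3 was found in 25% of 48 Card14KI and 26.3% of 38 WT granular cells, against 0.0790% and 0.0999% of fibroblasts, the class used as background. For Ugcg the thinned shares were 66.7% and 60.5% in granular cells and 20.7% and 20% in fibroblasts, where its level was 120 and 118 CPM. Unthinned, Cers3 was found in 75.5% and 71.8% of granular cells, whose median depth was 24132 and 27486 UMIs, and in 0.0729% and 0.234% of fibroblasts, with 5592 and 7209 UMIs.

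From the basal to the granular layer the members took 3 courses, and these were alike in both libraries. With 50 or more UMIs over the layers, 31 members were measured in Card14KI and 28 in WT. The granular layer was the highest for 12 and 12 of them, the spinous layer for 13 and 12, and the basal layer for 6 and 4. All 28 members measured in both libraries had the same highest layer, with no share of all genes to set beside this agreement. With cells thinned to 2000 UMIs, the granular count in WT was 4, with fewer UMIs left to reach the same minimum. Over all genes measured, the granular layer was the highest for 14.5% in Card14KI and 13.6% in WT, the spinous layer for 31.5% and 39.1%, and the basal layer for 54% and 47.3%. Keratin and epidermal differentiation complex genes took 33.6% of UMIs in Card14KI and 40.0% in WT granular cells, against 7.54% and 8.19% in spinous and 2.89% and 3.25% in basal cells, which lowers the CPM of every other gene in the granular layer.

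The members that peaked in the granular layer of both libraries were Cers3, Elovl1, Ugcg, Sgms1, Smpd1, Asah1, Pnpla1, Slc27a4, Nipal4, Sdr9c7, Abca12 and Tgm1. In Card14KI, Ugcg had 18.6, 118 and 459 CPM in basal, spinous and granular cells, and in WT 7.85, 137 and 357 CPM. Sdr9c7 had the highest granular over spinous ratio of them, 7.35-fold (6.48 to 8.34) in Card14KI and 4.96-fold (4.23 to 5.83) in WT, with intervals that overlap those of Asah1. Asah1, the lysosomal acid ceramidase, was 6.43-fold (5.28 to 7.83) and 4.81-fold (3.76 to 6.15) higher in granular than spinous cells, and its basal and spinous levels lay close together, at 20.6 and 24.4 CPM in Card14KI and 26.9 and 29.0 CPM in WT. Outside these layers Asah1 was not particular to granular cells, where it had 157 CPM in Card14KI and 140 CPM in WT. Phagocytes had 145 and 146 CPM, and fibroblasts 106 and 100 CPM.

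Genes of the first steps of synthesis had their highest CPM one layer lower. Sptlc1, Sptlc2, Sptlc3 and Kdsr, which make the sphingoid base, all had it in spinous cells. For Kdsr the spinous over basal ratio was 1.11 (0.910 to 1.38) in Card14KI and 1.35 (0.954 to 1.96) in WT, and for Sptlc2 the granular over spinous ratio in Card14KI was 0.730 (0.496 to 1.04), so these layers were not resolved. Sptlc3, the subunit tied to shorter bases, had 21.4, 81.8 and 2.74 CPM in basal, spinous and granular cells of Card14KI and 10.1, 82.1 and 3.93 CPM in WT. Degs1, the desaturase that completes ceramide, had 86.6, 110 and 1.83 CPM in Card14KI and 56.0, 77.4 and 3.93 CPM in WT. Elovl4, Elovl7, Acer1, Abhd5, Fabp5, Tgm5 and the cholesterol sulfotransferase Sult2b1 had their highest CPM there too. For Elovl7 the granular over spinous ratio was 0.961 (0.738 to 1.23) in Card14KI and 0.783 (0.586 to 1.03) in WT, and for Abhd5 0.883 (0.726 to 1.07) and 0.768 (0.613 to 0.955). The highest layer of Elovl7, and of Abhd5 and Tgm5 in Card14KI, was thus not resolved from the granular layer, whose CPM the keratin share above lowers. Not corrected for that share, the spinous over granular ratio was 1.30 for Abhd5 in WT, 1.45 for Sult2b1 in Card14KI and 1.71 for Sptlc1 in WT. A spinous peak in these cases, and for Sptlc2 in Card14KI, is thus given for CPM of all UMIs. Whether it holds without that share was not tested. Acer1 was 15.1-fold higher in spinous than granular cells in Card14KI and 23.7-fold in WT. The members highest in basal cells of both libraries were Cers6, Psap, Abca1 and Tgm3, though in WT the spinous over basal intervals of Cers6 (0.599 to 1.27) and Tgm3 (0.331 to 1.05) include 1. Psap had 189 and 213 CPM in basal cells of Card14KI and WT, and 13.7 and 13.8 CPM in granular cells.

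**Figure D3:**
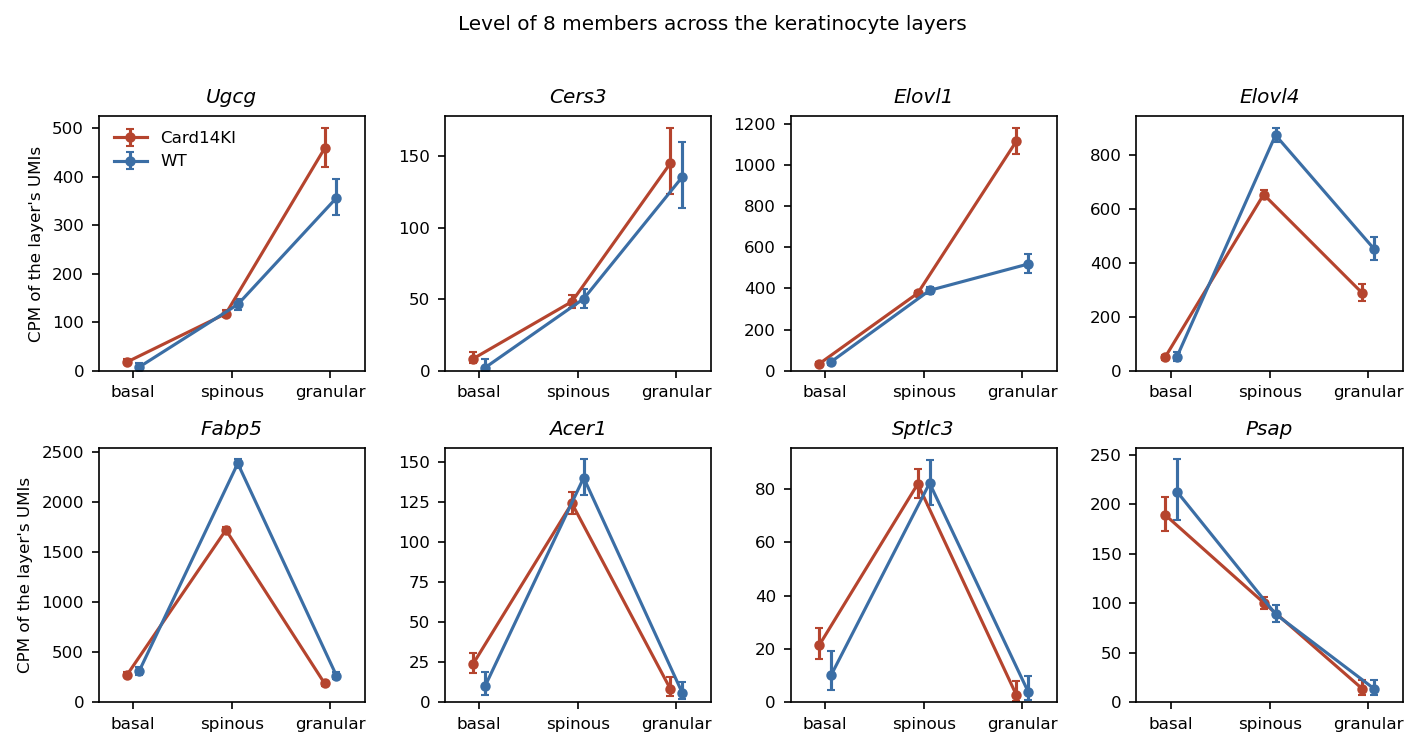
CPM of 8 members in basal, spinous and granular cells of Card14KI (red) and WT (blue), with exact 95% Poisson intervals. Ugcg, Cers3 and Elovl1 are highest in granular cells, Elovl4, Fabp5, Acer1 and Sptlc3 in spinous cells and Psap in basal cells of both libraries. Elovl1 in granular cells is at 1115 CPM in Card14KI and 519 CPM in WT.

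In granular cells, 19 members had 50 or more UMIs over both libraries, and 7 of them were higher in Card14KI by 1.5-fold or more and 1 was lower. By the same rule 23.4% of all 2365 genes measured were higher and 6.34% lower. The median log2 ratio of CPM + 10 was 0.30 over the members and 0.18 over all genes. Granular cells of Card14KI had more CPM of most genes: the median ratio of all genes was 1.16, or 0.21 on the log2 scale, while the share of keratin and differentiation complex genes was smaller. Scaled to that median ratio, 2 members were higher and 3 lower, and with cells thinned to 2000 UMIs 1 was higher and 0 lower. Thinning leaves fewer UMIs, and so fewer members at the 50 UMI minimum. In Lor, Flg and Flg2, markers of this gate, Card14KI had 71899, 4814 and 10895 CPM against 82342, 11140 and 11294 CPM in WT, and the spinous marker Krtdap had 54790 against 32579 CPM. The 10 granular markers summed to 176282 CPM in Card14KI against 212813 CPM in WT, and the 7 spinous markers to 73436 against 48093 CPM. The part of this in the ratios was not tested.

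Elovl1 had the highest ratio of the members there. It had 1220 UMIs and 1115 CPM in Card14KI, against 528 UMIs and 519 CPM in WT, a ratio of 2.15 (1.94 to 2.38), and 1.86 relative to the median of all genes. The median granular cell had 6.18 and 0.97 Elovl1 UMIs per 10000. In spinous cells the levels were 377 and 391 CPM, a ratio of 0.965 (0.912 to 1.02), and in basal cells 34.2 and 43.7 CPM. Slc27a4 had 80.4 CPM against 44.2 CPM, a ratio of 1.82 (1.26 to 2.67), and is the other member above 1.5-fold relative to that median, at 1.57.

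Elovl4 was lower in granular cells of Card14KI, with 288 CPM against 451 CPM in WT, a ratio of 0.638 (0.551 to 0.738), and 0.551 relative to the median of all genes. In spinous cells it was lower by less than 1.5-fold, with 653 against 872 CPM and a ratio of 0.748 (0.719 to 0.778), and basal levels were 50.1 and 51.6 CPM. Its mean and median over granular cells parted: the median cell had 1.40 UMIs per 10000 in Card14KI and 0.680 in WT. With each granular cell given equal weight the log2 ratio was -0.46, within the 1.5-fold limit. It was also within it with the 200-gene and 1000-gene cell filters (-0.54 and -0.56) and with cells thinned (-0.40). With doublets kept, the stricter gate margin or scaling to the median ratio it was past it, at -0.66, -0.80 and -0.83. The 4 WT cells with the most Elovl4 UMIs held 49.2% of them, and the 5 such Card14KI cells 35.9%.

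Smpd1 had 161 CPM in Card14KI against 94.3 CPM in WT granular cells, a ratio of 1.70 (1.32 to 2.21). Tgm1 (chromosome 14, 55700009 to 55713926) had 458 CPM against 286 CPM, a ratio of 1.6 (1.38 to 1.86). Nipal4, a membrane protein of the acylceramide pathway, had 217 against 140 CPM, a ratio of 1.55 (1.25 to 1.92), and Sult2b1 143 against 95.3 CPM, a ratio of 1.51 (1.16 to 1.96). These 4 lay between 1.30 and 1.47 relative to the median of all genes, and so under 1.5-fold. Sptlc2 had only 33 and 20 UMIs, with an interval of 0.855 to 2.82 around its ratio of 1.53, and its log2 ratio was -0.055 with the stricter gate margin.

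Other main members of the layer were within 1.5-fold by CPM, though relative to the median of all genes Pnpla1 (0.652) and Fabp5 (0.612) were lower past it. Cers3 (ratio 1.07, 0.848 to 1.36), Abca12 (1.07, 0.933 to 1.22), Asah1 (1.13, 0.897 to 1.42) and Abhd5, the coactivator of PNPLA1 (1.14, 0.865 to 1.51), had intervals that include 1. Ugcg (1.29, 1.12 to 1.48), Sdr9c7 (1.24, 1.07 to 1.43) and Sgms1 (1.48, with a lower bound of 1.2) were higher by less than 1.5-fold. Pnpla1, the transacylase that forms acylceramide, had 66.7 CPM in Card14KI against 88.4 CPM in WT, a ratio of 0.754 (0.546 to 1.04). Elovl7 (1.04, 0.722 to 1.49) and Sptlc1 (0.848, 0.503 to 1.42) rested on few UMIs. Fabp5 had a ratio of 0.709 (0.589 to 0.852), but 1 WT cell held 122 of the 273 WT UMIs and without the top cell of each library the log2 ratio was -0.05. The 14 members under 50 UMIs there were Sptlc3, Kdsr, Cers2, Cers4, Cers5, Cers6, Degs1, Degs2, Sgms2, Psap, Acer1, Abca1, Tgm3 and Tgm5.

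**Figure D4:**
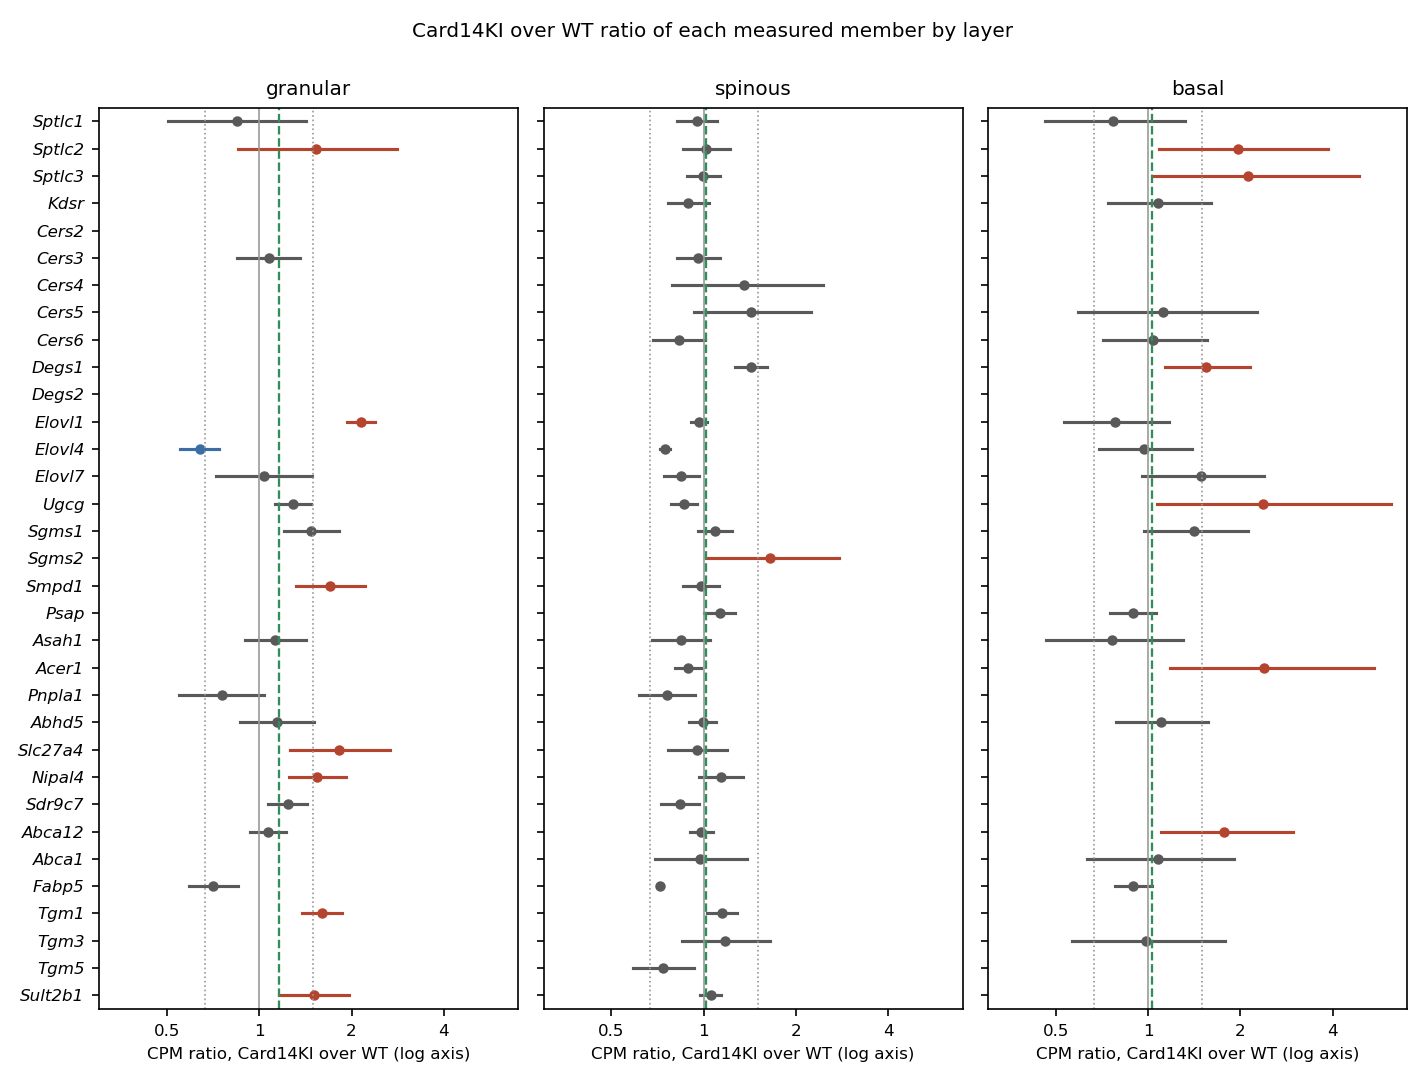
Ratio of CPM, Card14KI over WT, on a log axis for each member with 50 or more UMIs over both libraries in granular, spinous and basal cells, with exact 95% intervals; red is 1.5-fold or more higher, blue 1.5-fold or more lower, dotted lines mark 1.5-fold, and the green dashed line is the median ratio of all genes. Granular ratios scatter to the right with Elovl1 at 2.15 and Elovl4 on the left at 0.638, spinous ratios cluster around 1, and 6 basal ratios lie to the right of 1.5-fold.

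In spinous cells, with the deepest counts of the layers, the members were close between the libraries. Of 31 measured, 1 was higher in Card14KI by 1.5-fold or more and 0 were lower, against 8.55% and 4.17% of 9280 genes. That member was Sgms2, with 86 and 22 UMIs and a ratio of 1.65 (1.02 to 2.76), and its direction turned with cells weighted equally (log2 ratio -0.16) and with cells thinned (-0.78). Sptlc3 (0.996, 0.881 to 1.13), Abca12 (0.981, 0.902 to 1.07) and Cers3 (0.959, 0.819 to 1.13) had intervals that include 1. Within 1.5-fold, the highest ratio was that of Degs1, with 110 CPM against 77.4 CPM and a ratio of 1.43 (1.26 to 1.61), and the lowest that of Fabp5, with 1724 against 2390 CPM and a ratio of 0.721 (0.704 to 0.739). The 7 basal markers summed to 4817 CPM in Card14KI and 2595 CPM in WT spinous cells; the part of this in the ratios was not tested.

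In basal cells, 20 members were measured, and 6 were higher in Card14KI and 0 lower, against 11% and 5.65% of 6020 genes. They were Sptlc2 (28.7 against 14.6 CPM), Sptlc3 (21.4 against 10.1 CPM), Degs1 (86.6 against 56.0 CPM), Ugcg (18.6 against 7.85 CPM), Acer1 (24.1 against 10.1 CPM) and Abca12 (41.5 against 23.5 CPM). Their ratios ran between 1.55 and 2.39, with WT counts of 7 to 50 UMIs. Of the layers, Ugcg and Abca12 were highest in granular cells and the other 4 in spinous cells of both libraries. Markers of the spinous gate were also higher in these basal cells, summing to 6809 CPM in Card14KI against 4645 CPM in WT, with Krt10 at 2535 against 1701 CPM, and basal markers summed to 16805 against 21894 CPM. The part of this in the 6 ratios was not tested. With cells thinned to 2000 UMIs no member reached the 50 UMI minimum in basal cells, so the count of 0 higher there says nothing about the 6. When each cell counted equally, Ugcg had a log2 ratio of -0.41.

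In the sebaceous gland most members were within 1.5-fold between the libraries, and the 6 sebocyte markers summed to 25773 CPM in Card14KI against 20315 CPM in WT sebocytes. Of 23 members measured in sebocytes, 3 were higher in Card14KI and 0 lower, against 3.65% and 5.89% of 8690 genes. Cers5 had 59.1 CPM in Card14KI against 19.1 CPM in WT, a ratio of 3.10 (2.47 to 3.93), but 19 of 183 cells held 72.7% of the Card14KI count. Abca12 had 14.9 against 3.96 CPM, a ratio of 3.76 (2.28 to 6.43), found in 46 of 183 and 17 of 200 sebocytes. Elovl7 had 16.7 against 5.85 CPM, in 7.10% and 7% of sebocytes. Cers4 had a ratio of 0.878 (0.860 to 0.897), Elovl4 of 1.26 (1.23 to 1.28) and Fabp5 of 1.07 (1.06 to 1.08), and the interval of Slc27a4 included 1 (0.952 to 1.06). In sebaceous basal cells, 9 members were measured, 0 were higher and 2 lower, against 5.27% and 13.7% of 4096 genes. Cers4 had 120 CPM in Card14KI against 199 CPM in WT, a ratio of 0.603 (0.462 to 0.781), and Abca1 166 against 295 CPM, a ratio of 0.563 (0.450 to 0.699). In sebaceous basal cells the 7 basal markers summed to 5474 CPM in Card14KI against 4229 CPM in WT. The 5 cycling markers summed to 530 against 810 CPM there, and the 6 sebocyte markers to 1662 against 1728 CPM. The part of these in the 2 ratios was not tested.

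Upper follicle cells had 31 members measured, 2 higher in Card14KI and 4 lower, against 5.92% and 7.59% of 7773 genes. Sptlc3 (19.1 against 12.6 CPM) and Cers5 (11.5 against 5.71 CPM) were higher. Lower were Cers6 (21.9 against 41.5 CPM), Sgms2 (6.68 against 12.2 CPM), Pnpla1 (12.5 against 23.6 CPM) and Fabp5 (443 against 821 CPM). Fabp5 had the narrowest interval of them, 0.505 to 0.577 around a ratio of 0.540, whereas Sgms2 turned direction with cells thinned (log2 ratio 0.63). In these cells the 10 granular markers summed to 662 CPM in Card14KI against 983 CPM in WT, with Flg at 12.8 against 170 CPM, and the 7 spinous markers to 15443 against 10597 CPM. The 5 cycling markers summed to 219 against 61.6 CPM and the 6 fibroblast markers to 36.7 against 246 CPM. The part of these in the ratios was not tested.

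Outside the epithelium, fibroblasts had 21 members measured, with 1 higher and 0 lower, against 5.86% and 13.4% of 11851 genes; the 1 was Tgm1, at 4.08 CPM in Card14KI and 1.89 CPM in WT from 35 and 34 UMIs. In endothelial cells 0 of 15 were higher and 3 lower, against 6.11% and 14.7% of 5845 genes. These were Abca1 (320 against 541 CPM, ratio 0.592), Fabp5 (39.1 against 103 CPM, ratio 0.378) and Sgms1 (86.8 against 133 CPM, ratio 0.654). Markers of several cell types were also lower in the endothelial class of Card14KI, with 61.7 against 166 CPM for the 5 pericyte and smooth muscle markers, 108 against 221 CPM for the 6 fibroblast markers and 92.9 against 185 CPM for the 7 mononuclear phagocyte markers. Its own lymphatic markers summed to 5979 against 8058 CPM and its blood endothelial markers to 3867 against 4881 CPM. The part of these in the 3 ratios was not tested. In phagocytes 1 of 12 was higher, Abca1, with 158 against 92.9 CPM and a ratio of 1.70 (1.31 to 2.18), and 2 were lower, Elovl1 and Sgms1, against 5.51% and 11.4% of 4850 genes. Lymphocytes had 1 of 7 higher, Ugcg (186 against 115 CPM), and 1 lower, Sgms1 (30.3 against 67.2 CPM), against 5.52% and 13.8% of 3734 genes. B and plasma cells had 0 of 2 higher and 2 lower, Degs1 and Psap, against 11.2% and 16.4% of 943 genes. Neutrophils had 0 of 2 members past the limit, against 9.11% higher and 15.2% lower of 395 genes. Sgms1 was the member lower in 3 of these classes, endothelial cells, phagocytes and lymphocytes.

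Genes that work beside the members were taken from 5 lists. Of 13 further acylceramide and lipid envelope genes, 10 were measured over the layers in each library, and 5 were highest in granular cells of each. Of all genes, 14.5% in Card14KI and 13.6% in WT were highest in granular cells. Named for their role, Alox12b and Aloxe3, the lipoxygenases that oxidise the linoleate of acylceramide, had 393 and 203 CPM in Card14KI and 322 and 155 CPM in WT granular cells. The lipase gene Lipk had 354 CPM in Card14KI against 215 CPM in WT granular cells, a ratio of 1.64 (1.39 to 1.95), and 35.1 against 18.1 CPM in spinous cells, a ratio of 1.94 (1.52 to 2.50). In granular cells 2 of 8 measured genes of this list were higher and 0 lower, in spinous cells 1 of 10 and 0, and in basal cells 2 of 4 and 1. Of all genes 23.4% were higher and 6.34% lower in granular cells, 8.55% and 4.17% in spinous cells and 11% and 5.65% in basal cells, so the granular count is near the share of all genes. The acyl-CoA synthetase Acsl1 was the other in granular cells (33.8 against 20.6 CPM), and in basal cells Acsl3 (55.1 against 30.3 CPM) and Acsl4 (29.9 against 11.2 CPM) were higher and the phospholipase Pla2g2f (19.8 against 32.5 CPM) lower.

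Of the further sphingolipid genes, 1 of 18 measured in spinous cells was higher and 1 lower, and 2 of 12 in basal cells were higher and 2 lower, against 8.55% and 4.17% of all genes in spinous and 11% and 5.65% in basal cells. Sphk1, a sphingosine kinase, was higher in granular cells (36.5 CPM in Card14KI against 19.6 CPM in WT) and lower in spinous cells (70.0 against 108 CPM). Acer3, another alkaline ceramidase, had 75.8 against 48.6 CPM in spinous cells. Sptssa, a small subunit of serine palmitoyltransferase, had 206 against 313 CPM in basal cells, a ratio of 0.659 (0.569 to 0.765), and Ormdl2, an inhibitor of that enzyme, 43.9 against 71.7 CPM. Cerk and Smpd2 were higher there on 11 and 17 WT UMIs, with intervals that include 1.

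Of the 11 further genes of fatty acid synthesis and elongation, all those measured over the layers were highest in spinous cells. They numbered 8 in Card14KI and 7 in WT, where the spinous layer was highest for 31.5% and 39.1% of all genes. Past the limit were 0 of 3 in granular and 0 of 8 in spinous cells, and 2 of 6 were higher in basal cells, Fasn (29.9 against 8.97 CPM) and Elovl6 (16.7 against 8.97 CPM), on 8 WT UMIs each. Of the 10 lamellar body and transport genes, the cholesterol transporter Npc1 was higher in granular cells (28.3 against 18.7 CPM) and basal cells (69.5 against 43.7 CPM), 1 of 3 and 1 of 4 measured, and 0 of 9 passed the limit in spinous cells. Among 15 transcription factors of the lipid barrier, 2 of 10 were higher in granular cells, 0 of 12 in spinous cells and 6 of 10 in basal cells, with 0 lower in any layer, against 23.4%, 8.55% and 11% of all genes higher. In granular cells these were Cebpa (95 against 52.1 CPM) and Ppard (64.0 against 39.3 CPM). In basal cells Ovol1, a factor of keratinocyte differentiation, had 185 CPM in Card14KI against 65.0 CPM in WT, a ratio of 2.84 (2.16 to 3.80), Klf4 had 683 against 449 CPM, Hopx 342 against 195 CPM and Cebpa 94.4 against 37.0 CPM. Grhl1 and Srebf1 were the other 2. The spinous marker levels given above for these basal cells apply here too. The median log2 ratios of the sphingolipid, elongation, acylceramide, lamellar body and transcription factor lists were -0.01, 0.13, 0.32, 0.42 and 0.33 in granular cells, where that of all genes was 0.18. In spinous cells they were -0.08, -0.08, -0.09, -0.04 and -0.01, where all genes had 0.02. In basal cells they were 0.18, 0.14, 0.41, 0.15 and 0.51, where all genes had 0.03.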

How the data were processed

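Per the labels' protocols, cells of enzyme-digested skin entered the 10x Genomics 3' kit. The authors deposited UMI counts, whole and not normalized, for each barcode and gene; per the file headers these were written by cellranger 5.0.0, and per the submitters' processing notes Cell Ranger 6.0.2 and mm10 were used. Printed gene coordinates are from GENCODE vM21 on GRCm38, which may not be the release the counts were made with.

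Barcodes with under 500 genes or 20% or more mitochondrial UMIs were removed (435 Card14KI, 681 WT). The automatic Scrublet threshold marked 4 and 2 cells (0.137% and 0.0461%) and was taken as failed, so the top scores were removed at 0.8% per 1000 barcodes, 78 and 174 cells. A cell took the class whose markers had the highest mean log count per 10000 UMIs, by a margin of 0.25; 130 and 282 cells lay within it and were left out. Basal cells were split by their next keratinocyte class, and those next to follicle classes were not compared, since 48 of 90 WT but 7 of 37 Card14KI cells adjoined the outer root sheath. The margin, the scoring and the split were chosen after seeing the data, and names rebuilt from markers can differ from the authors' own.

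With 1 library per group no test was run. A member was called at 1.5-fold with 50 or more UMIs over both libraries in a class. Ratios have exact conditional binomial intervals, CPM exact Poisson intervals, and both were tested on simulated data. Log2 ratios are of CPM + 10 and understate low genes. Other filters, margins, scalings, weights, minimums and folds were tried as alternatives. Members past the limit in a layer, or leading their role group, are described in full, and from each further list up to 4 genes past it. The result of 1 gene of these lists is not reported here. The members and lists were chosen with earlier results of these data known. Python 3.11.15, scanpy 1.11.5, numpy 2.4.6 and scipy 1.17.1 were used.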

Additional observations from a re-analysis of the deposited data

Results flagged for a closer look

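Abca1 passed 1.5-fold in opposite directions in different classes. Its ratio of Card14KI over WT was 0.592 (0.519 to 0.674) in endothelial cells and 0.563 in sebaceous basal cells, but 1.70 in phagocytes. Sgms2 had a ratio of 1.65 in spinous cells and 0.549 in upper follicle cells, on 86 and 22 UMIs and on 22 and 32 UMIs of Card14KI and WT. With cells thinned both directions of Sgms2 turned, to log2 ratios of -0.78 in spinous and 0.63 in upper follicle cells, and with cells weighted equally the spinous one was -0.16. The difference between classes was not tested in either gene, since each class has 1 library per genotype.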

How the results depend on the processing

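No paired analysis was possible because each genotype has 1 library. Of 1455 recomputed log2 ratios of single members, 1297 stayed within the counting error, 152 moved and 6 changed sign after being past the limit. In granular cells, members higher were 2 when scaled to the median ratio, 3 without keratin and differentiation complex genes in the total, and 1 with cells thinned or at a fold of 2; Elovl1 was past 1.5-fold in each setting that gave a granular value, with log2 ratios from 0.78 to 1.2. Members lower there were 0 with the 200-gene or 1000-gene filter, cells weighted equally, cells thinned or a fold of 2, 2 with the stricter margin or without keratin genes, 3 with the median ratio and 4 with no minimum. In spinous cells, members higher were 3 with the 1000-gene filter, doublets kept, Leiden clusters or cells thinned, 2 with equal weights and 0 at a fold of 2, and members lower 2 with Leiden clusters or thinning. In basal cells, members higher were 12 with no minimum, 3 at a fold of 2, and 0 with thinning, where no member kept enough UMIs to be measured. Members lower there were 1 with Leiden clusters or the stricter margin and 2 with equal weights or no minimum. With all basal cells pooled, an alternative added after seeing the data, 12 were higher and 6 lower. That pool held 87 basal, 58 sebaceous basal and 37 follicle basal cells in Card14KI, but 34, 60 and 90 in WT. It thus compares unlike mixtures of cells. No share of all genes is given beside the counts of these alternatives. Members highest in the granular layer of WT were 4 with thinning. Sign changes were Ugcg in basal cells (-0.068 with Leiden clusters, -0.41 with equal weights), Sptlc2 in granular cells (-0.055, stricter margin), Sgms2 in spinous cells (-0.16 equal weights, -0.78 thinned) and Sgms2 in upper follicle cells (0.63, thinned). Thinning leaves fewer UMIs and a fold of 2 asks for more by construction; the cause of the other moves was not tested. Leiden clusters gave no granular or sebaceous basal cluster. Granular counts rest on 49 and 39 cells, and basal WT counts on 34.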
